A study of Mus musculus with 16 samples.

Results

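The genes described here are 8 genes of contractile cells and of the actin cytoskeleton: Acta2, Mylk, Myoz2, Lasp1, Pdlim4, Trip6, Actr3 and Ctnna1. They were measured in whole testes of Musashi transgenic mice. Their probes were found by gene symbol in the authors' deposited comparison tables, which pair a probe with a gene only for 932 of the 25697 probes on the array. The search gave 10 probes, 3 of them for Acta2 and 1 for each other gene. All 10 came from the table for the Musashi-2 transgene. Its probes all have at least a 1.50-fold difference between TgMsi2 and Wt(TgMsi2) testes and an authors' unadjusted p under 0.05. The Musashi-1 table, whose probes have at least a 1.20-fold difference and the same limit on p, gave 0. The TgMsi2 difference therefore chose the genes, and it is given below as a description with no test, whereas the TgMsi1 difference played no part in the choice and was tested.

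Total RNA of whole adult testes was hybridised to 16 Illumina bead arrays, 4 per group. The groups were TgMsi1 (mice overexpressing Musashi-1 from a testis-specific transgene), their wild-type littermates, Wt(TgMsi1), TgMsi2 (overexpressing Musashi-2 from a testis-specific transgene) and their wild-type littermates, Wt(TgMsi2). All mice were of the B6xCBA strain and 3 months old. The labels do not name the promoter or the cells that drive either transgene, and they leave unsaid whether each replicate is its own mouse, so the p-values cover the spread between arrays, which may be technical. Values are normalized log2 signals, on which a difference of 1 is a doubling. A probe's brightness depends on the probe, so no gene's level is set against another's.

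Musashi proteins bind RNA, with a UAG core in their recognition sequence, and control translation, splicing and stability of their target transcripts. In the testis, smooth muscle actin marks the peritubular myoid cells, flat contractile cells that surround each seminiferous tubule and move sperm along it. Actin filaments are also dense inside Sertoli cells, where they anchor the adherens-type junctions that hold developing spermatids. In muscle and in other contractile cells, serum response factor switches on many actin genes through a sequence called the CArG box.

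The probes that read these genes are 50 bases long. Those for Acta2 (at transcript position 236), Mylk, Myoz2, Pdlim4 and Trip6 are shown because they define what was measured for most of the genes described below. Capitals mark TAG, the DNA form of the Musashi core. Of the 10 probes 3 hold TAG (against 35.3% of the 932 named probes), and among those shown only the Mylk probe does. A TAG in a probe describes its letters, and binding of Musashi to these transcripts was not tested.
Acta2 probe: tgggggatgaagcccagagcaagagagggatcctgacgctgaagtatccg
Mylk probe: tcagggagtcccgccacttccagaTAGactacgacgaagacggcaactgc
Myoz2 probe: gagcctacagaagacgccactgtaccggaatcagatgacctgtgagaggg
Pdlim4 probe: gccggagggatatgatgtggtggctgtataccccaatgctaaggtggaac
Trip6 probe: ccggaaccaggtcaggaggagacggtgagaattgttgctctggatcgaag

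In the deposited tables the Mylk probe lies on chromosome 16 (35000404 to 35000453, plus strand) and the Myoz2 probe on chromosome 3 (122709295 to 122709344, minus strand). The Pdlim4 probe lies on chromosome 11 (53868544 to 53868593, minus strand) and the Trip6 probe on chromosome 5 (137540099 to 137540148, minus strand). The tables name no genome build for these positions and do not say whether a probe falls in coding sequence or in a UTR. The Acta2 probe at position 236 has no genome position in the tables, and the other Acta2 probes start at transcript positions 1245 and 1330 (chromosome 19, 34316066 to 34316115 and 34315981 to 34316030, minus strand). Coding sequences of the actin genes are similar. Whether an Acta2 probe that reads coding sequence also took signal from another actin was not tested.

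Promoter windows of 300 bases around an annotated start were available from RefSeq (GRCm38.p6) for 7 of the 8 genes, all but Ctnna1. They were searched for the CArG box on both strands, a motif that reads alike on each. An exact box stood in 1 of 7 windows (Trip6), against 1.63% of all 32851 promoter windows. With up to 1 G or C allowed in its A/T centre, the box stood in 3 of 7 windows (Acta2, which has 2, Pdlim4 and Trip6), against 9.98% of all windows. The Acta2 window (chr19:34255354-34255623, minus strand) and the Trip6 window (chr5:137314222-137314491, minus strand) are shown from 250 bases before the start to 20 after it, with these boxes in capitals. A match is a description of the letters and not of binding.
Acta2 promoter: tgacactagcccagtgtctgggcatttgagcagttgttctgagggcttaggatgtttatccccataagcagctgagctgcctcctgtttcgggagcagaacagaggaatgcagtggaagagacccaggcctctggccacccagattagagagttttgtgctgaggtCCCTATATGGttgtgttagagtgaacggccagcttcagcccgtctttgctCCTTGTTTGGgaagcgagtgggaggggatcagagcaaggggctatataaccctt
Trip6 promoter: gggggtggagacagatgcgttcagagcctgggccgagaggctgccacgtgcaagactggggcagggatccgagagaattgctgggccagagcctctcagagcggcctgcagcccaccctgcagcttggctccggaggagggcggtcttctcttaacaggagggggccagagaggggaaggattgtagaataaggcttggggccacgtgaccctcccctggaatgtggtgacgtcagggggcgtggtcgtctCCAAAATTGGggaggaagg

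Some arrays stood apart across all probes. On the first principal component, which held 40.9% of the variance, TgMsi2 arrays lay at 35.3, 13.6, 30.2 and 9.20 (replicates 1 to 4), TgMsi1 replicate 2 at 10.7 and the other 11 arrays between -16.4 and -3.46. Wt(TgMsi2) replicate 3 was the lowest of these. The probes of Msi1 and Msi2 are not named in the tables, so the transgenes themselves were not read.

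In TgMsi2 testes the 10 listed probes of the 8 genes all had higher signals than in Wt(TgMsi2) testes. The differences were 0.59 to 1.01 on the log2 scale, or 1.50-fold to 2.02-fold. The median of the 10 differences was 0.71, while the median over all 25697 probes was -0.0037, with 5% of probes above 0.34. All 10 probes had a mean log2 above 8, as did 10831 of the 25697. Values over all probes, here and below, thus come mostly from dimmer probes. At all 10 probes the 4 TgMsi2 arrays lay above the 4 Wt(TgMsi2) arrays. This was so for 7.6% of all probes, but since the genes were chosen on this contrast nothing is read from the count. At 6 of the 10 probes (the 3 of Acta2, Myoz2, Pdlim4 and Trip6) the TgMsi2 arrays also lay above all 12 other arrays, as at 2.03% of all probes. This count takes in the same contrast, so nothing is read from it either. In bulk tissue, a larger share of cells of a type and more RNA per cell cannot be told apart.

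**Figure D1:**
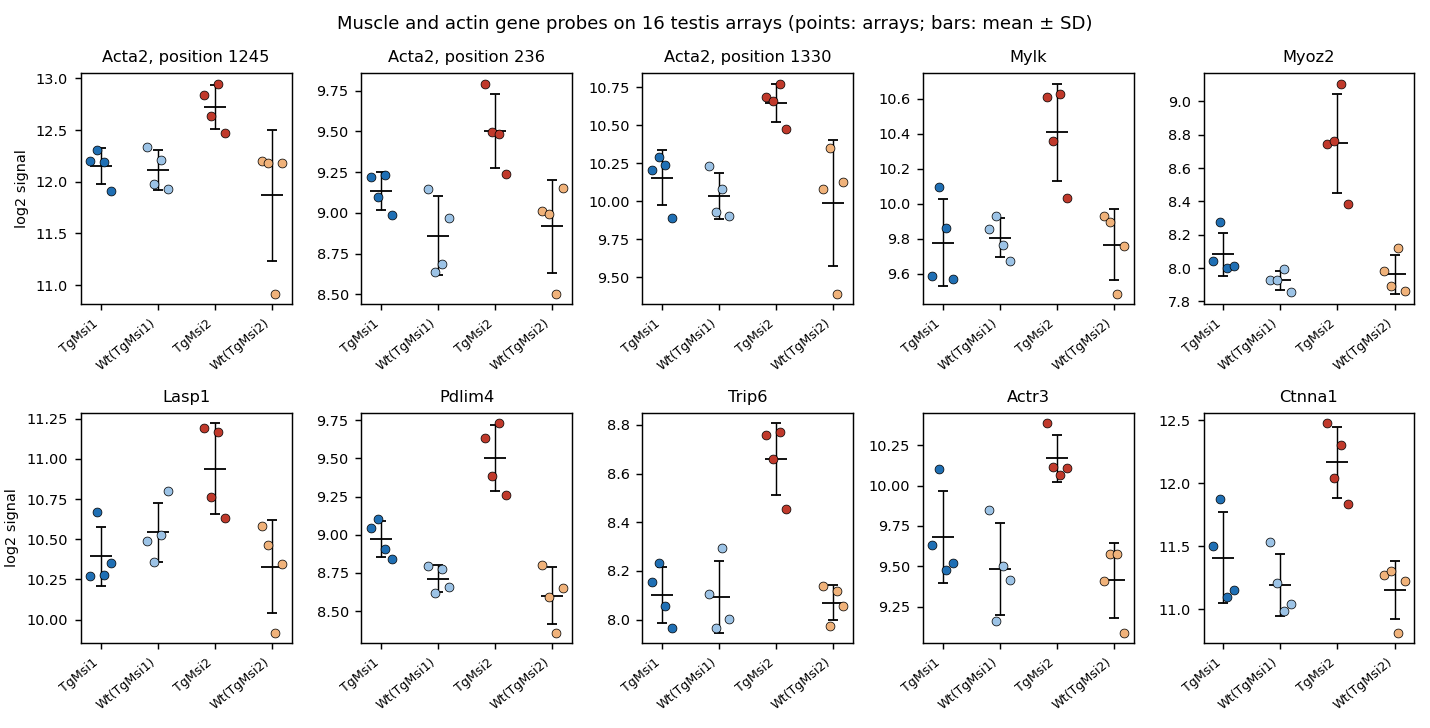
Log2 signal (y axes, scaled per panel) of the 10 probes on each of the 16 arrays, by group, with 1 point per array (replicates 1 to 4 from left to right) and bars for the mean and SD of 4 arrays. The TgMsi2 points lie above the Wt(TgMsi2) points in every panel, and Wt(TgMsi2) replicate 3 lies well below the rest of its group for Acta2.

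Acta2 encodes smooth muscle alpha-actin, the main thin filament protein of myoid and vascular smooth muscle cells. Its probe at transcript position 1245 read 12.84, 12.64, 12.95 and 12.47 in TgMsi2 testes, against 12.20, 12.18, 10.92 and 12.18 in Wt(TgMsi2) testes (replicates 1 to 4). Wt(TgMsi2) replicate 3 was thus far below its 3 littermate arrays, which differed among themselves by less than any TgMsi2 array differed from them. The mean was 12.73 ± 0.21 in TgMsi2 and 11.87 ± 0.63 in Wt(TgMsi2) (SD, n = 4 each), a difference of 0.86 (SE 0.23). Without Wt(TgMsi2) replicate 3 it was 0.54, or 1.45-fold in place of 1.81-fold.

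The other Acta2 probes had the same low array. At position 1330 the TgMsi2 arrays read 10.68, 10.66, 10.77 and 10.47, against 10.08, 10.35, 9.39 and 10.13 in Wt(TgMsi2). At position 236 they read 9.79, 9.50, 9.48 and 9.24, against 9.01, 8.99, 8.50 and 9.15. The differences were 0.66 (SE 0.16) and 0.59 (SE 0.15), and 0.46 and 0.45 without Wt(TgMsi2) replicate 3. All 3 Acta2 probes thus fell below 1.5-fold without that array, at 1.37-fold to 1.45-fold. Leaving out an array cannot make separate groups overlap, so nothing is read from their separation without that array. Mylk (1.46-fold) and Lasp1 (1.39-fold) also fell below 1.5-fold without it, and the probes of the other genes did not. The probe at position 236 was the nearest to the table's limit, with a ratio of 1.502 in the authors' deposited table. The array design holds 1 further Acta2 probe and 4 further probes of Mylk, Lasp1 and Trip6. They are in neither table, so they were not among the listed changes, and they were not analysed here.

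Mylk encodes myosin light chain kinase, which starts smooth muscle contraction by phosphorylating myosin. It read 10.61, 10.36, 10.62 and 10.03 in TgMsi2 testes, against 9.93, 9.90, 9.49 and 9.76 in Wt(TgMsi2) testes. The difference was 0.64 (SE 0.14, n = 4 each), and 0.55, or 1.46-fold, without Wt(TgMsi2) replicate 3. Its lowest TgMsi2 array, replicate 4, was within the range of TgMsi1 testes, where replicate 2 reached 10.10.

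Myoz2 encodes myozenin-2 (calsarcin-1), a protein of the Z-disc of heart and slow skeletal muscle that binds alpha-actinin and calcineurin. Its arrays read 8.74, 8.76, 9.11 and 8.38 in TgMsi2 testes, against 7.98, 7.89, 8.12 and 7.86 in Wt(TgMsi2) testes, a difference of 0.79 (SE 0.11). The wild-type values are close to the median of all probes on each array, 7.83, so the signal there is near the level of dim probes. With 2 to the power 7 subtracted from the linear signals, a setting that removes most of this floor, the difference was 1.31, or 2.48-fold in place of 1.72-fold.

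Lasp1, Pdlim4 and Trip6 encode proteins that carry LIM domains and sit on actin filaments. Pdlim4, which binds alpha-actinin, had 9.63, 9.38, 9.73 and 9.26 in TgMsi2 testes, against 8.80, 8.59, 8.36 and 8.65 in Wt(TgMsi2) testes. The gap of 0.46 between the lowest TgMsi2 and the highest Wt(TgMsi2) array was wider than the range of the Wt(TgMsi2) arrays, and the difference was 0.90 (SE 0.11). Trip6, a zyxin-family protein of focal adhesions, read 8.45 to 8.77 in TgMsi2 testes and 7.97 to 8.14 in Wt(TgMsi2) testes, a difference of 0.59 (SE 0.08). It was also dim in wild type, and its difference was 0.97 with 2 to the power 7 subtracted. Lasp1, an actin-binding protein of cell edges and adhesions, read 10.63 to 11.19 in TgMsi2 testes and 9.92 to 10.58 in Wt(TgMsi2) testes, a difference of 0.61 (SE 0.16). Its TgMsi2 and Wt(TgMsi2) groups were separated by only 0.05, and the difference was 0.37 without TgMsi2 replicates 1 and 3. Without Wt(TgMsi2) replicate 3 the Lasp1 difference was 0.47, or 1.39-fold.

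Actr3 encodes a core subunit of the Arp2/3 complex, which starts branched actin filaments. It read 10.39, 10.12, 10.07 and 10.11 in TgMsi2 testes, against 9.41, 9.58, 9.58 and 9.09 in Wt(TgMsi2) testes, a difference of 0.76 (SE 0.16). Ctnna1 encodes alpha-E-catenin, which ties cadherin junctions to actin. Its difference was 1.01 (SE 0.19), with 12.48, 12.04, 12.30 and 11.84 in TgMsi2 testes against 11.27, 11.30, 10.81 and 11.22 in Wt(TgMsi2) testes. Each TgMsi2 array was above every Wt(TgMsi2) array by at least 0.54 for Ctnna1 and by at least 0.49 for Actr3.

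The TgMsi1 comparison asks whether the same genes differed when Musashi-1 was overexpressed in place of Musashi-2. None of the 10 probes passed limma's threshold of an adjusted p under 0.05 over 25697 probes, against 0.0117% of all probes in this comparison. At an unadjusted p under 0.05 there was 1 of 10 (Pdlim4), against 7.32% of all probes. The differences ran from -0.15 to 0.27 with a median of 0.14, and 8 were above 0 and 2 below it. The median over all probes, most of them dimmer than these 10, was 0.00012, and 5% of all probes were above 0.16.

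Pdlim4 had 9.04, 9.10, 8.91 and 8.84 in TgMsi1 testes, against 8.80, 8.62, 8.78 and 8.66 in Wt(TgMsi1) testes. The groups did not overlap, and the difference was 0.26 (95% interval 0.03 to 0.49, limma adjusted p = 0.594). Myoz2 also had TgMsi1 arrays (7.9996 to 8.28) that all lay above the Wt(TgMsi1) arrays (7.86 to 7.99), with a difference of 0.16 (-0.09 to 0.40, limma adjusted p = 0.835). Such separation was found at 1.88% of all probes upwards and at 2.16% downwards. The remaining 8 probes overlapped between the groups.

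For Acta2 the 3 probes gave TgMsi1 differences of 0.04, 0.27 and 0.12 (positions 1245, 236 and 1330), with limma adjusted p from 0.753 to 0.988. Their 95% intervals reached up to 0.54, 0.59 and 0.46. These intervals use a spread shared by all groups. At position 1245 the SE was 0.23, and 0.11 without Wt(TgMsi2) replicate 3, an array outside this comparison. Mylk (-0.03, interval -0.34 to 0.28) and Trip6 (0.01, -0.17 to 0.19) had differences near 0, and Lasp1 was the gene with the lowest value (-0.15, -0.49 to 0.19). Actr3 (0.20, -0.14 to 0.54) and Ctnna1 (0.22, -0.18 to 0.61) had wider intervals, and both differences were 0.06 without TgMsi1 replicate 2. The difference between the transgenes was not tested, because the TgMsi2 side was selected.

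**Figure D2:**
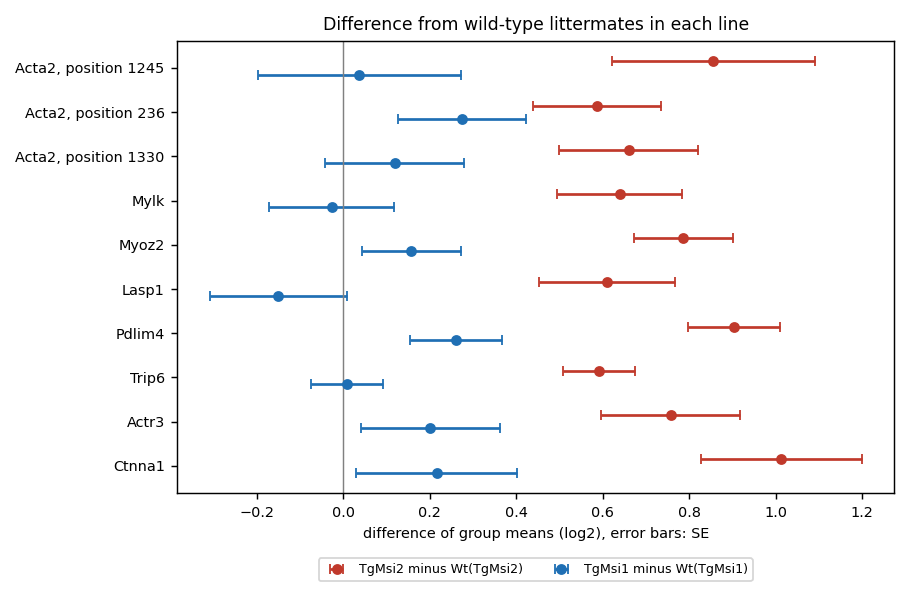
Difference of group means on the log2 scale (x axis) for each of the 10 probes, TgMsi2 minus Wt(TgMsi2) in red and TgMsi1 minus Wt(TgMsi1) in blue, with bars for the SE of the fit. The red points lie between 0.59 and 1.01 and the blue points between -0.15 and 0.27, and the red ones belong to the contrast on which the genes were chosen.

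Within groups, the same array was often the highest or the lowest. In TgMsi1 testes, replicate 2 was the highest of the 4 arrays at 9 of 10 probes, against 34.0% of 10831 brighter probes (mean log2 over 8). Examples are Ctnna1, with 11.88 on that array against 11.50, 11.10 and 11.15 on replicates 1, 3 and 4, and Actr3, with 10.10 against 9.63, 9.48 and 9.52. At the 4 probes where TgMsi2 arrays did not clear all others (Mylk, Lasp1, Actr3 and Ctnna1), TgMsi1 replicate 2 was above the lowest TgMsi2 array. For Lasp1, Wt(TgMsi1) replicate 4 was above it too (10.80). In TgMsi2 testes, replicate 4 was the lowest array at 9 of 10 probes, against 28.9% of the brighter probes. In Wt(TgMsi2) testes, replicate 3 was the lowest at 7 of 10, against 28.4%.

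The wild-type testes of both lines were set side by side. The Wt(TgMsi1) minus Wt(TgMsi2) differences ran from -0.06 to 0.24 with a median of 0.04, and at all 10 probes the groups overlapped. Over all probes 1.86% had every Wt(TgMsi1) array above every Wt(TgMsi2) array, and 2.35% had every one below. The widest, 0.24 for Acta2 at position 1245, was -0.07 without Wt(TgMsi2) replicate 3. These values share the Wt(TgMsi2) arrays with the contrast that chose the genes and were not tested.

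The other genes of contraction, actin filaments and actin-linked junctions came from 8 lists, which hold 125 genes found in the array design. Leaving out the 8 genes above, 117 remained, of which 8 (6.84%) were listed as higher and 1 (0.855%) as lower in the authors' deposited TgMsi2 table. Of the 18097 genes of the design, 2.03% were listed as higher and 1.43% as lower, a share that includes genes with dim probes. The 8 lists were chosen with earlier results of these data known, so nothing is read from how these shares differ. Genes outside the tables have no named probe, so a smaller change in them could not be seen. Among the 15 myoid and smooth muscle markers, 14 are in the design. Only 3 could be read, because they were listed as higher in TgMsi2 (Acta2, Mylk and Tpm1). Such defining markers as Myh11, Cnn1, Des and Tagln were not among the listed changes and could not be read. Whether the myoid list moved as a whole was not tested.

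Tpm1, a tropomyosin that lies along actin filaments, had 10.64 in TgMsi2 and 9.68 in Wt(TgMsi2) testes, a difference of 0.96 (SE 0.19), and Myl6, a myosin essential light chain, differed by 0.65 (SE 0.14). Zyx, the focal adhesion protein zyxin and a relative of Trip6, differed by 0.97 (SE 0.19). Of the 18 Arp2/3 genes in the design, Arpc1b (1.11 and 0.75 at its 2 probes) and Arpc5 (0.85) were listed with Actr3, and all encode subunits of the complex itself. Nectin2, a junction protein that Sertoli cells present to spermatids, differed by 0.72 and 0.72 at its 2 probes. The actin-severing Dstn (0.74) and the actin monomer-binding Tmsb4x (0.81) came from the list of filament turnover. The gene listed as lower was Pfn3, a testis-specific profilin of spermatids, at -0.88 (SE 0.25).

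Of the 13 named probes of these other genes, 11 were not chosen on the TgMsi1 comparison. In that comparison 0 of the 11 passed limma's adjusted threshold and 2 had an unadjusted p under 0.05, against 7.32% of all probes. These were Tmsb4x (0.28, limma adjusted p = 0.676) and Pfn3 (-0.56, limma adjusted p = 0.66). Nectin3 and Pfn1 were named through the authors' TgMsi1 table, so their TgMsi1 differences of 0.46 and 0.27 are a description. Of these 11 genes Pfn3 had the lowest difference in both lines.

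**Figure D3:**
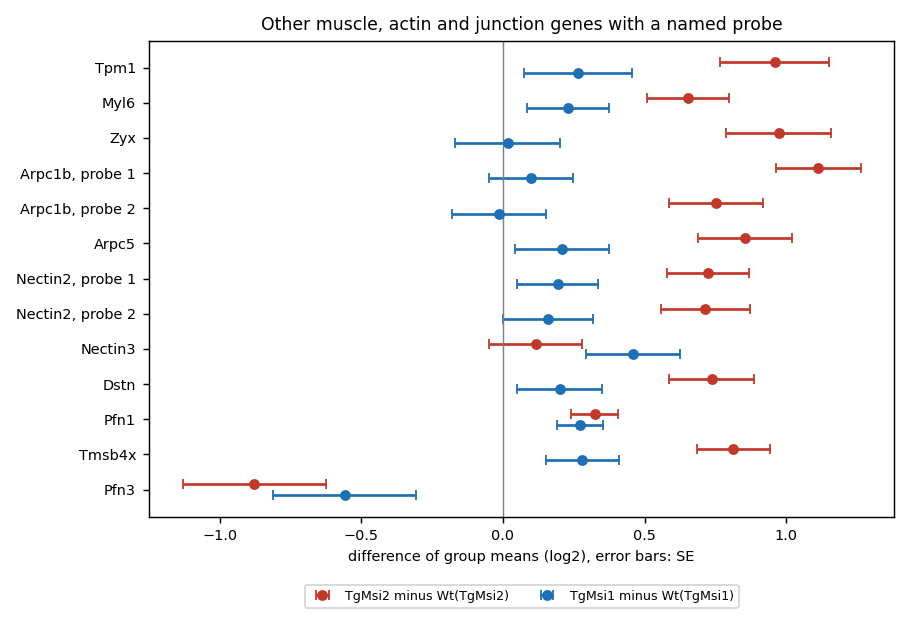
Difference of group means on the log2 scale (x axis) for 13 probes of 11 other muscle, actin and junction genes named in a deposited table, TgMsi2 minus Wt(TgMsi2) in red and TgMsi1 minus Wt(TgMsi1) in blue, with bars for the SE. All red points but Pfn3 (-0.88) are above 0, and Nectin3 and Pfn1 were named through the TgMsi1 table.

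The readable markers of other cell types were set beside the 8 genes, array by array. The mean of the 10 probes, taken relative to the mean of the wild-type littermates, was 0.91, 0.68, 0.89 and 0.48 on TgMsi2 replicates 1 to 4, and from -0.29 to 0.13 on the Wt(TgMsi2) arrays. Sertoli cell markers (5 of the 12 in the design readable) were at 0.92, 0.54, 0.88 and 0.35 on the same TgMsi2 arrays, against -0.09 to 0.12 on the Wt(TgMsi2) arrays. Replicates 1 and 3 were thus the high arrays for both. Leydig cell markers (4 of 10) were at 1.27, 0.62, 0.96 and 0.57 on TgMsi2 replicates 1 to 4, with replicates 1 and 3 again high, against -0.55 to 0.44 in Wt(TgMsi2) testes, where replicate 3 was lowest. Macrophage and immune markers (4 of 11) were at 0.79, 1.07, 0.72 and 0.84 in TgMsi2, against -0.24 to 0.12 in Wt(TgMsi2). They were thus above the Wt(TgMsi2) arrays too, but replicates 1 and 3, the high arrays for the 8 genes, were their lowest in TgMsi2.

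Spermatid markers (6 of 13) went the other way. They lay at -1.06, -0.55, -1.04 and -0.53 on TgMsi2 replicates 1 to 4, against -0.07 to 0.08 on the Wt(TgMsi2) arrays. In the TgMsi1 line, replicate 2 had the lowest spermatid value (-0.87, against -0.25 to -0.11 on the other 3 TgMsi1 arrays) and the highest mean of the 8 genes (0.33, against -0.06 to 0.11). The Wt(TgMsi1) arrays ranged from -0.22 to 0.12 for spermatid markers and from -0.11 to 0.15 for the 8 genes. Robo4 was the 1 of 10 endothelial markers that could be read, at 9.81 to 10.60 in TgMsi2, against 8.12 to 8.23 in Wt(TgMsi2). Of the 8 epididymis and 4 blood markers in the design 0 could be read. All readable markers were named through a comparison of these same arrays, and the part of these cells in the values of the 8 genes was not tested.

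**Figure D4:**
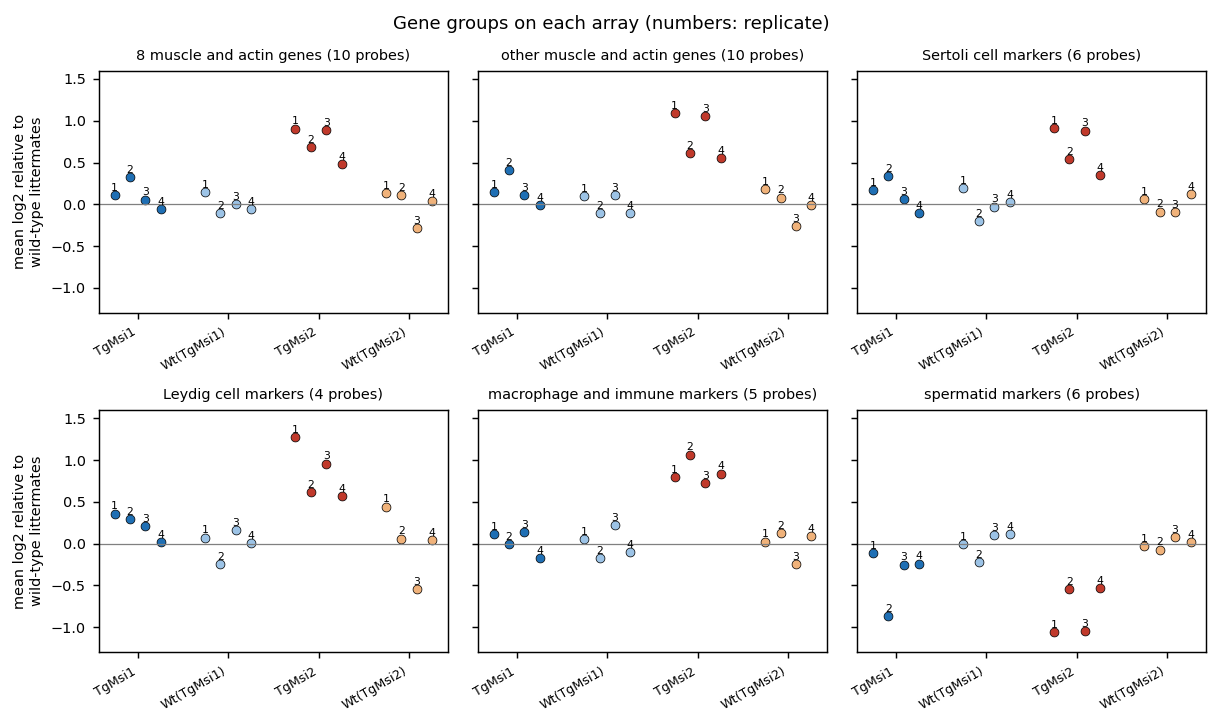
Mean log2 signal of each gene group relative to the mean of the wild-type littermates of the line (y axis) on each array, by group (x axis), with 1 point per array labelled with its replicate number. TgMsi2 replicates 1 and 3 are the highest for the 8 genes (0.91 and 0.89) and the lowest for spermatid markers (-1.06 and -1.04).

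The named genes with the profiles nearest to Acta2 and Mylk over the 16 arrays were found by the mean absolute difference of log2 values relative to wild-type littermates, among 922 probes. For Acta2 at position 1245 these were Ywhah, a 14-3-3 protein gene (0.14), Tpm1 (0.14) and the G protein gene Gna14 (0.15), against a median of 0.45 over the 922. For Acta2 at position 1330 they were Jkamp (0.10), the imprinted gene Ndn (0.12) and again Ywhah (0.12). For Acta2 at position 236 they were Tmem14c (0.10), the mitochondrial peroxiredoxin gene Prdx3 (0.11) and Ywhab (0.11). Mylk lay nearest to Mgat4b (0.09), the predicted LOC100044177 (0.10) and Carhsp1 (0.10). The Acta2 probes differed from each other by 0.13 to 0.24 on this measure, and the 45 pairs of the 10 probes by 0.12 to 0.28. Gene pairs from this search were all selected for change in the same arrays, so likeness here is a description.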

How the data were processed

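The value table deposited by the authors holds log2 values of 25697 probes on 16 arrays. Per the submitters' processing notes GenomeStudio was used; how the values were normalized is not stated in the labels or headers. Sorted columns differed by at most 0.006, as quantile normalization gives. The comparison tables deposited by the authors hold, per the file headers, an unadjusted p-value, a transgenic over wild-type ratio and a score that gives the same fold with a sign. The 128 per-array columns of a further unnormalized table are tied to no sample by the labels and were not used. Its gene symbols gave the genes of the array design.

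Groups were fitted together in limma 3.58.1 (R 4.3.3; lmFit with 1 mean per group, contrasts, eBayes), and p-values were adjusted by Benjamini-Hochberg over all probes with a threshold of 0.05. The fit was run on simulated arrays with independent noise at each probe, which leaves out shifts shared across an array. It recovered 60 of 100 simulated TgMsi1 changes of 0.5 log2 and 95 of 100 changes of 1. Of its 160 calls 5 were false. Arrays give no read depth, and their number limits the precision. Genes and lists were chosen with earlier results of these data known. Named genes were the 8 genes, up to 4 genes of each list with a named probe, and the 3 genes nearest to Acta2 and Mylk. Alternatives changed the arrays fitted, the filter on dim probes, the variance model, array weights, the replicate block, the scaling and the background.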

Additional observations from a re-analysis of the deposited data

Results flagged for a closer look

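Of 40 groups of 4 arrays (10 probes in 4 groups), 4 held an array whose gap to its nearest neighbour took up more of the group's range than Dixon's 95% limit allows, and chance flags about 1 in 20 groups. Acta2 at position 1245 read 10.92 on Wt(TgMsi2) replicate 3, with the nearest array of its group at 12.18. Ctnna1 read 10.81 on the same array, with the nearest at 11.22. Myoz2 read 8.28 on TgMsi1 replicate 2, with the nearest at 8.04. Actr3 read 10.39 on TgMsi2 replicate 1, with the nearest at 10.12.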

How the results depend on the processing

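None of the 10 probes of the 8 genes passed limma's adjusted threshold in TgMsi1 under any of the 24 alternatives, with 1 of 10 at an unadjusted p under 0.05 in the reported fit. Nor did any of the 13 probes of other list genes, of which 2 were chosen on that comparison, while 2 of the other 11 had an unadjusted p under 0.05. The lowest adjusted p of any of the 10 probes was 0.434 (limma, Pdlim4, without TgMsi2 replicates 1 and 3). The TgMsi2 differences kept their sign under every alternative, and their median ran from 0.58 to 0.89. The genes were chosen on this contrast and the groups did not overlap. Leaving out arrays thus could not change a sign, and nothing is read from the kept signs. With 2 to the power 7 subtracted, the TgMsi2 difference was 1.31 for Myoz2, 1.20 for Pdlim4, 1.06 for Ctnna1 and 0.97 for Trip6, so the order of the genes by size depends on this setting. Uncalled TgMsi1 differences changed sign under 3 alternatives for Acta2 at position 1245, 3 for Mylk and 4 for Trip6. Wt(TgMsi1) minus Wt(TgMsi2) had a median of -0.02 without Wt(TgMsi2) replicate 3.

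Over all probes, limma called 3 in TgMsi1. It called 0 with only the 8 arrays of the line, 8 with only probes of a mean log2 above 8, 7 with a robust variance that follows intensity, 5 with array weights and 9 without TgMsi2 replicates 1 and 3. Leaving out each array in turn gave 0 to 30, the highest without Wt(TgMsi1) replicate 2. In TgMsi2 it called 2960, 1305 to 3530 with each array left out in turn and 201 without both TgMsi2 replicates 1 and 3. The causes were not tested. With the replicate number as a block it called 17 in TgMsi1 and 3170 in TgMsi2, and 0 of the 10 probes in TgMsi1. Deviations of same-numbered arrays correlated at 0.02 to 0.45 in the TgMsi1 line and at -0.32 to 0.37 in the TgMsi2 line. Not every pair was above 0.1, and 4 of 8 arrays in the TgMsi1 line and 3 of 8 in the TgMsi2 line correlated best with their own number, so the numbers were not taken to pair the samples. Whether some pairs share a source was not tested. Signals near those of dim probes limit Myoz2 and Trip6, and 4 arrays a group limit all intervals.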
